A study of Mus musculus with 8 samples.

Results

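The 9 genes examined here carry the core of transforming growth factor beta (TGF-beta) signalling in cultured mouse aortic smooth muscle cells: the ligands Tgfb1, Tgfb2 and Tgfb3, the receptors Tgfbr1, Tgfbr2 and Tgfbr3, the signal carriers Smad2 and Smad3, and the target gene Ctgf. Members were all probes of the array table whose gene symbol is one of these names, which gave 14 of 25697 probes and 9 of 18138 symbols. The rule that picks the probes uses names and no measured value. The cells were primary cultures grown out of explants of several mouse aortas, after the adventitia had been cleaned off. The control group was transfected with a scrambled oligo and the treated group with a moR-21 mimetic, each at 5 nM with the reagent RNAiMAX, and RNA was taken at 48 h. There were 3 samples per group, with a pair of Illumina expression arrays (A and B) for control sample 1 and for moR-21 sample 3, so that 8 arrays stood for 6 samples. Strain and age of the aorta donors are not given in the labels, and nothing states that the triplicates came from separate cultures or animals. The p-values thus set group differences against the spread between these samples, which may be technical.

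A microRNA-offset RNA (moR) is a small RNA cut from the part of a microRNA precursor that lies directly beside the mature microRNA. moR-21 comes from the precursor of miR-21, and the hairpin is shown because that RNA is the agent of the experiment. In the RefSeq hairpin of Mir21a (GRCm38.p6, chr11:86584067-86584158, minus strand), the 17 bases in capitals precede the first base of miR-21a-5p. The sequence of the transfected mimetic itself was not used here.

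Mir21a hairpin: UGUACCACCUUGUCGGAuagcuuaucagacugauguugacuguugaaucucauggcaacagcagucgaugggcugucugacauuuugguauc

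In TGF-beta signalling, a ligand dimer is secreted in a latent form and, once released, binds the type II receptor Tgfbr2, which then phosphorylates the type I receptor Tgfbr1. Tgfbr1 phosphorylates Smad2 and Smad3, which enter the nucleus with Smad4 and regulate target genes, while the coreceptor Tgfbr3 (betaglycan) presents ligand, above all TGF-beta2. In smooth muscle cells the pathway is known for raising contractile genes and matrix genes, and Ctgf, a secreted matricellular protein, is among its classic targets.

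No member passed the cutoffs of the study for a changed gene, namely more than 1.3-fold in either direction together with an adjusted p below 0.002. Tgfbr2 and Smad2 mRNA was nevertheless higher in all 3 moR-21 samples than in any control sample, by 25.3% and by 1.19-fold, and Tgfbr1 mRNA was lower in all 3, by 0.17 on the log2 scale. The 3 ligands, Tgfbr3, Smad3 and Ctgf were not told apart from control. Of the 14 member probes, 11 had a detection p-value under 0.01 on all 8 arrays and were tested, and they cover all 9 genes. The detection p-value is the share of negative controls that shine at least as strongly as the probe. The remaining 3 probes, all for Tgfbr1, were detected on 0 of 8 arrays. All values below are log2 of quantile-normalized intensity, each sample being the mean of its arrays, and all differences are moR-21 minus control from limma with Benjamini-Hochberg adjustment over 11651 probes. At the study's cutoffs 0 of 11 member probes were called, against 6.96% of all tested probes (363 higher and 448 lower). With an adjusted p under 0.05 and no fold cutoff, 3 of 11 were called, against 33.8% of all. Read by gene, 2 of the 9 members were higher, against 18.8% of 8727 genes, and 1 was lower, against 17.3%. At an unadjusted p under 0.05 it was 4 of 11, beside 4920 of 11651 over all. The sample values of the groups did not overlap at 5 of 11 member probes, against 45.0% of all tested probes. The median absolute difference was 0.08 over the member probes and 0.09 over all, so the members as a whole were close to the background of the array.

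**Figure D1:**
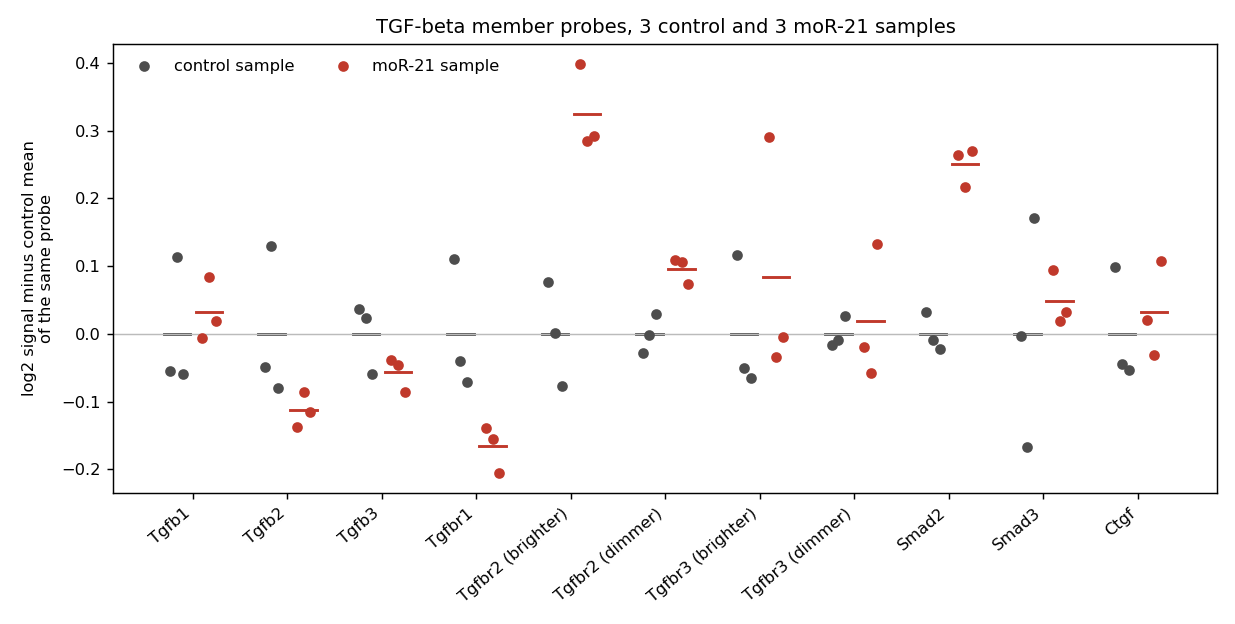
Log2 signal of each sample minus the mean of the 3 control samples at the same probe (vertical axis), for the 11 tested member probes (horizontal axis), with controls in grey and moR-21 samples in red and group means as bars. The moR-21 points lie above all control points at both Tgfbr2 probes and at Smad2, and below them at Tgfb2 and Tgfbr1.

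Tgfbr2, the type II receptor that binds the ligand, had the smallest p of the members. At its brighter probe (ILMN_2760979) the 3 control samples read 11.35, 11.27 and 11.20, and the 3 moR-21 samples read 11.67, 11.56 and 11.56. The groups were separated by 0.21, more than the SD of either group (0.076 in control and 0.063 in moR-21, n = 3). The difference was 0.32 (SE 0.053, 95% interval 0.21 to 0.44) with a limma adjusted p of 3.04e-04, which lies below the study's p cutoff while the fold of 1.25 lies below its fold cutoff. By absolute size this difference ranked 1135 of 11651 tested probes. The dimmer Tgfbr2 probe (ILMN_1242086), annotated to the same transcript variant, read 6.95, 6.98 and 7.01 in control and 7.09, 7.08 and 7.05 in moR-21 samples. There too the groups did not overlap, but the difference was 0.10 (SE 0.044) with an adjusted p of 0.116. With normexp, a method that estimates and removes background from each array, the dimmer probe differed by 0.26 (adjusted p = 0.0292) and the brighter probe by 0.34 (adjusted p = 0.011), so the distance between the probes depended on whether background was removed.

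Tgfbr1, the type I receptor kinase, was read at 1 probe (ILMN_2602711). Control samples read 8.66, 8.51 and 8.48, and moR-21 samples read 8.41, 8.39 and 8.34. All moR-21 samples lay below all control samples, with a gap of 0.07, which is smaller than the drop from control sample 1 to the other two. The difference was -0.17 (SE 0.054, 95% interval -0.28 to -0.05) with an adjusted p of 0.0279, and with normexp it was -0.22 with an adjusted p of 0.082. Its adjusted p was under 0.05 in 11 of 16 alternative settings, against 16 of 16 for the brighter Tgfbr2 probe and for Smad2. Beside normexp, the exceptions were median scaling (adjusted p = 0.117), the fit without control sample 1 (difference -0.11, adjusted p = 0.147) and those that dropped moR-21 sample 2 (0.0503) or moR-21 sample 3 (0.101). The other Tgfbr1 probes had raw intensities from 93.7 to 107.6, where the array medians were 102.5 to 109.2, and say nothing about the receptor.

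The receptors that form the signalling complex thus differed in opposite directions. Within each sample, the log2 signal of Tgfbr2 minus that of Tgfbr1 was 2.69, 2.77 and 2.72 in control and 3.26, 3.16 and 3.22 in moR-21 samples. The mean of this quantity was 0.49 higher after moR-21, given as a description with no test, since the pair was chosen after its values were seen to separate. The 2.7 itself compares different probes and is not a ratio of transcripts.

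The upstream sequences of this pair are shown because their mRNAs differed in opposite directions. They are the 250 bases before the annotated start in RefSeq (GRCm38.p6), for Tgfbr2 chr9:116175364-116175613 on the minus strand and for the first of the listed Tgfbr1 starts chr4:47352972-47353221 on the plus strand. Capitals mark 3 motifs searched on both strands: the GC box GGGCGG, the core SMAD box CAGAC, and the TATA box TATAAA, none of which overlapped each other here.

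Tgfbr2 upstream: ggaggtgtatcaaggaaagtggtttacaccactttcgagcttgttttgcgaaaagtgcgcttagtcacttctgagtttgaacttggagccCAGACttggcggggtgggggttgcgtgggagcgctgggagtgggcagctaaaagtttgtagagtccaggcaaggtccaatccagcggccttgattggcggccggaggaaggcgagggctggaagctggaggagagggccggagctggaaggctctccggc

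Tgfbr1 upstream: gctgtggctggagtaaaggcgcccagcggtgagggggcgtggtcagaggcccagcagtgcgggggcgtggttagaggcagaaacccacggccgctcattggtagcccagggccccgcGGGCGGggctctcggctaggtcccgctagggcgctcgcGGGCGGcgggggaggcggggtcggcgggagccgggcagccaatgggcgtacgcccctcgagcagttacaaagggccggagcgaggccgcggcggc

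The Tgfbr1 sequence held 2 GC boxes and no other motif, at a GC content of 74.8%. The Tgfbr2 sequence held 1 SMAD box and no other motif, at 58.4% GC. Among 32851 upstream windows of the same length, 32.7% held a GC box, 42.2% a SMAD box and 12.4% a TATA box, so each of these motifs is common. Of the other members in the sequence table, Tgfb1 held 5 GC boxes, Smad3 held 2 GC boxes, Tgfb2 held 2 SMAD boxes and 1 TATA box, and the other listed Tgfbr1 start held 1 SMAD box. A match is a description of letters and not a bound site.

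Tgfbr3, the betaglycan coreceptor, gave no difference at either probe. At the brighter probe (ILMN_2789239) control samples read 9.29, 9.13 and 9.11, and moR-21 samples read 9.47, 9.14 and 9.17. The groups overlapped and moR-21 sample 1 stood highest, so that the difference of 0.08 (95% interval -0.08 to 0.25, adjusted p = 0.455) turned to -0.02 without that sample. The dimmer probe (ILMN_2606601) differed by 0.02 (adjusted p = 0.832) and by -0.04 without moR-21 sample 3.

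Smad2 and Smad3 are the receptor-regulated SMADs that carry the signal, and their values differed from each other in pattern. Smad2 (ILMN_1228414) read 7.88, 7.84 and 7.83 in control and 8.11, 8.06 and 8.12 in moR-21 samples. The groups were separated by 0.19, and within each group the samples lay close together (SD 0.028 in control and 0.03 in moR-21). The difference was 0.25 (SE 0.045, 95% interval 0.15 to 0.35) with an adjusted p of 6.34e-04, and with normexp it was 0.37 with an adjusted p of 0.00428. Smad3 (ILMN_2938893) read 8.63, 8.46 and 8.80 in control and 8.72, 8.65 and 8.66 in moR-21 samples, so that the moR-21 samples lay inside the control range. Its difference was 0.05 (95% interval -0.10 to 0.20, adjusted p = 0.65), and it was -0.03 without control sample 2. Arrays A and B of control sample 1 differed by 0.28 at this probe, the largest gap between repeat arrays of that sample among the tested member probes. The difference between the 2 treatment effects on Smad2 and Smad3 was not tested.

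The ligands showed no difference that passed the test. Tgfb1 (ILMN_2711461) read 7.22, 7.39 and 7.22 in control and 7.27, 7.36 and 7.30 in moR-21 samples, a difference of 0.03 (95% interval -0.09 to 0.15, adjusted p = 0.706). Tgfb2 (ILMN_1225196) read 7.37, 7.55 and 7.34 in control and 7.28, 7.33 and 7.30 in moR-21 samples. The Tgfb2 groups did not overlap, but the gap was 0.007, and the difference of -0.11 (95% interval -0.23 to 0.01) had an adjusted p of 0.144. Without control sample 2, the highest, it was -0.05, and leaving out each sample in turn gave -0.15 to -0.05 for Tgfb2 and 0.0025 to 0.0903 for Tgfb1. Tgfb3 (ILMN_2748966) read 8.72, 8.70 and 8.62 in control and 8.64, 8.63 and 8.59 in moR-21 samples, a difference of -0.06 (95% interval -0.16 to 0.04, adjusted p = 0.396). At Tgfb3 the A and B arrays of moR-21 sample 3 differed by 0.24, the largest such gap of that sample among the tested member probes and larger than the treatment difference.

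Ctgf (current symbol Ccn2; ILMN_2909150) read 9.03, 8.89 and 8.88 in control and 8.95, 8.90 and 9.04 in moR-21 samples. The groups overlapped, and the difference was 0.03 (95% interval -0.09 to 0.15, adjusted p = 0.71). Without moR-21 sample 3 it was -0.01. Over the tested member probes, the A and B arrays of a sample differed by a median of 0.04 in control sample 1 and 0.06 in moR-21 sample 3.

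The intervals give the range of array differences left by each fit for these samples, and that range depended on the processing. At 10 of 11 member probes the 95% interval, unadjusted, lay wholly between the limits of a 1.3-fold change in either direction (0.38 on the log2 scale), as did 84.7% of all tested probes, and the exception was the brighter Tgfbr2 probe. With normexp the intervals were wider and 6 of 11 lay inside, with both Tgfbr2 probes, Smad2, Tgfb2 and Tgfbr1 reaching past a limit. For the ligands Tgfb1 and Tgfb3, and for Tgfbr3, Smad3 and Ctgf, both settings kept the interval within 1.3-fold.

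**Figure D2:**
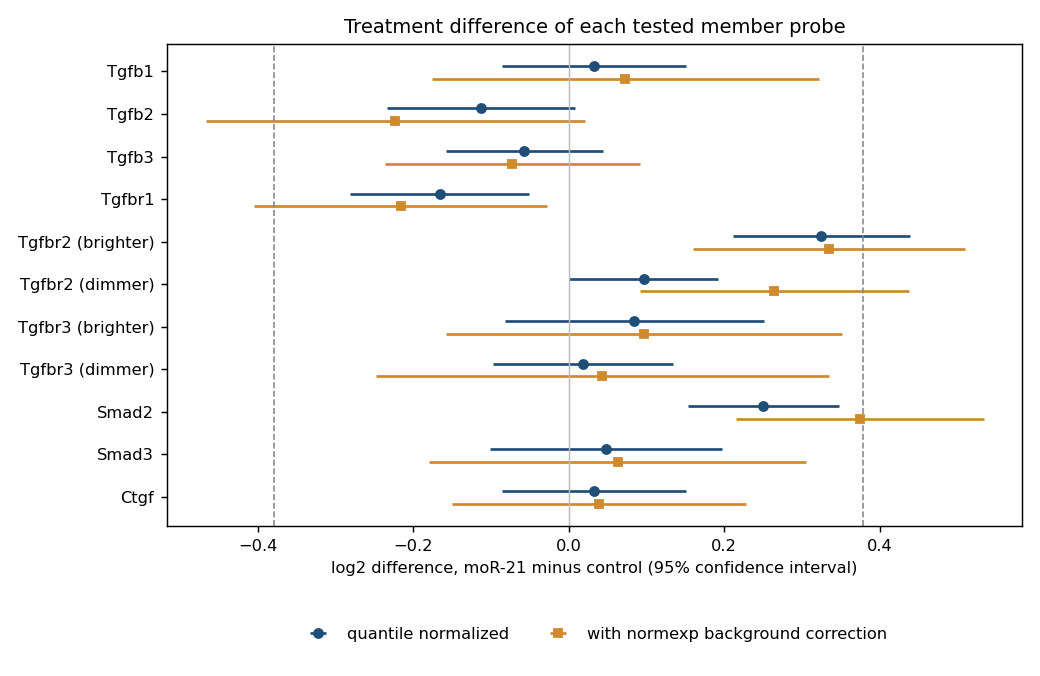
Log2 difference, moR-21 minus control (horizontal axis), with its 95% confidence interval for each tested member probe, after quantile normalization (circles) and with normexp background correction added (squares). Dashed lines mark a 1.3-fold change; the interval of the brighter Tgfbr2 probe (0.21 to 0.44) crosses the upper line in both settings and that of Smad2 does so with normexp.

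**Figure D3:**
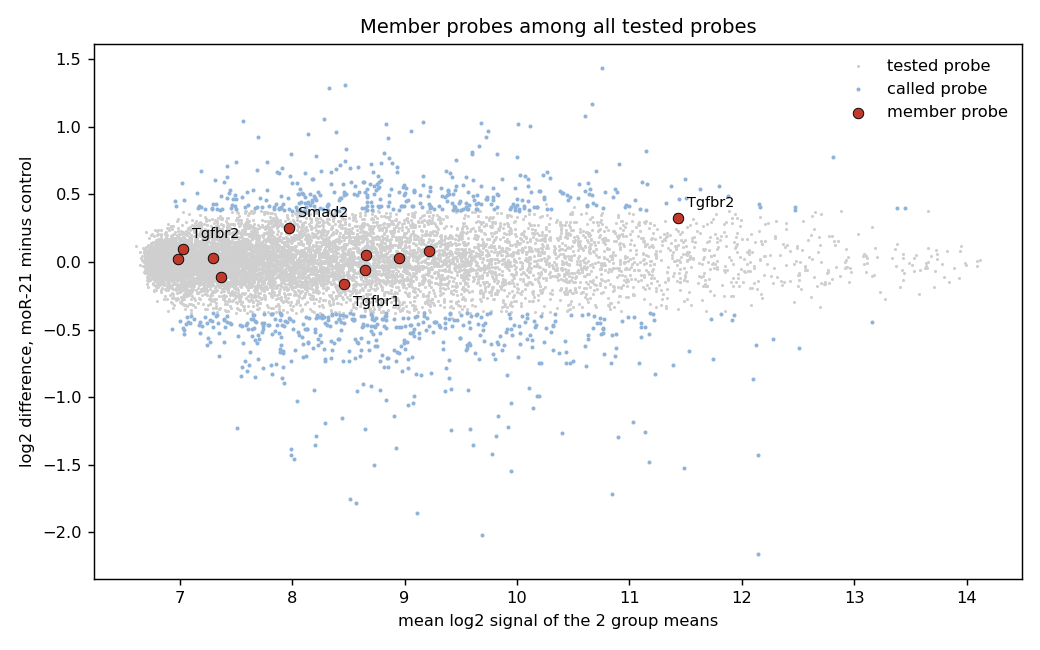
Mean log2 signal of both groups (horizontal axis) against the log2 difference, moR-21 minus control (vertical axis), for 11651 tested probes (grey), the 811 called probes (blue) and the 11 member probes (red). The member probes span dim to bright signals and all lie within the uncalled band.

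The 3 genes whose profile over the 6 samples, as deviations from their own control mean, lay nearest to that of the brighter Tgfbr2 probe were Ppap2b, a lipid phosphate phosphatase (root mean square distance 0.03, difference 0.34), Rragb, a Rag GTPase (0.032, difference 0.29), and Tmem50b, a transmembrane protein (0.032, difference 0.33). The median distance over 11649 other probes was 0.24.

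The genes around the members were read from lists, each gene at its brightest detected probe. For single genes so read, 3.41% of 8727 were called higher and 4.38% lower at the study's cutoffs, and the shares at an adjusted p under 0.05 without a fold cutoff are the 18.8% higher and 17.3% lower given for the members. The median difference over all of these genes was 0.01. Because this is bulk RNA, fewer cells of a type and less RNA per cell cannot be told apart in any of these values.

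Of 27 genes that store or release latent TGF-beta, 25 had a probe and 17 were tested. None was called higher and 2 were called lower. Fbn1, the microfibril protein fibrillin-1 that anchors latent complexes, fell from between 8.22 and 8.50 in control to between 7.42 and 7.55 in moR-21 samples, a difference of -0.86 (adjusted p = 3.47e-07). Mmp14, a membrane metalloproteinase, fell by 0.44 on the log2 scale (adjusted p = 9.77e-06), from 13.32 to 13.43 in control to 12.89 to 12.98. Without a fold cutoff 9 of 17 were lower and none was higher, and the list median was -0.15. Among the uncalled, the proprotein convertase Furin differed by -0.29 (adjusted p = 2.26e-04), and the integrin subunits Itgav and Itgb5 differed by -0.26 and -0.30 (adjusted p = 4.71e-04 and 6.06e-04). The dimmer Furin probe, at 6.80 in control, differed by -0.04 (adjusted p = 0.591). Itgav was detected on 5 of 8 arrays, and with normexp its difference was -0.81 and it was called. The thrombospondin Thbs1 and the integrin subunits Itgb6 and Itgb8, known activators, were not detected on any array.

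Among 30 receptor regulators and SMAD partners, 27 had a probe and 18 were tested. Only Wwp2, a ubiquitin ligase that acts on SMADs, was called, with a difference of -0.41 (adjusted p = 6.99e-05). That call was absent with normexp, where the difference was -0.56 at an adjusted p of 0.00222, and without moR-21 sample 2 (-0.35). The dimmer Wwp2 probes differed by -0.18 and 0.02, at control means of 7.11 and 6.84. The uncalled genes with the smallest p were all higher: Nedd4l, another ubiquitin ligase of the pathway (0.26, adjusted p = 5.47e-04), Fkbp1a, which binds the type I receptor (0.25, adjusted p = 7.73e-04), and the endocytic adaptor Dab2 (0.31, adjusted p = 0.0015), whose dimmer probe was called at 0.61. At an adjusted p under 0.05, 4 were higher and 4 lower, and the list median was -0.04. The inhibitory Smad7 was not detected, and Smad4 had no probe in the table used here.

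Among 47 target genes, 42 had a probe and 31 were tested, of which 2 were called higher and 6 lower. Tgfbi, a secreted matrix protein named for its induction by TGF-beta, fell from between 9.09 and 9.23 to between 8.18 and 8.31, a difference of -0.91 (adjusted p = 1.70e-08), while its dimmer probe differed by -0.31. The metalloproteinase Adam12 fell by 0.67, and the collagen chains Col1a2 and Col5a1 by 0.47 and 0.45, all on the log2 scale. Angptl4, a secreted lipase inhibitor, and the AP-1 factor Junb were lower by less, with differences of -0.41 and -0.39. In the other direction, Timp3, an inhibitor of metalloproteinases, rose by 0.56 (adjusted p = 1.18e-05). The dimmer Timp3 probe differed by 0.02, at a control mean of 6.79 that is close to background. Acta2, the smooth muscle actin, rose by 0.40 (adjusted p = 2.14e-05), from between 13.16 and 13.21 to between 13.54 and 13.64, and its 3 other probes were called at 0.64 to 0.81.

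Next in p among the uncalled targets were Tpm1, a tropomyosin (0.36, adjusted p = 8.77e-05), Tgfb1i1, the focal adhesion protein Hic-5 (0.23, adjusted p = 0.00289), and the transcription factor Bhlhe40 (0.30, adjusted p = 0.00304). At an adjusted p under 0.05, 6 targets were higher and 9 lower, and the list median was -0.02. The calls thus went both ways within the list. Of its uncalled matrix genes, Col1a1 differed by -0.20 (adjusted p = 0.0293). Others did not pass at 0.05, among them Col3a1 (0.11, adjusted p = 0.212), Lox (-0.11, adjusted p = 0.135) and Tnc (-0.04, adjusted p = 0.591). Eln, detected on 4 of 8 arrays, differed by 0.08 (adjusted p = 0.196), and by 0.28 with normexp (adjusted p = 0.0205). With normexp 5 targets were called, 4 of them among the 8 called above (Tgfbi, Adam12, Col5a1 and Timp3). The fifth was Tagln, another contractile gene, at 0.71 against 0.20 without background removal. Tagln was detected on 4 of 8 arrays with a control mean of 6.74, so both values rest on a dim probe. Tgfbi, Adam12, Col5a1 and Timp3 were called in 12 of 12 settings. The other 4 missed the p cutoff with normexp at differences no smaller than before: Junb -0.60, Col1a2 -0.59, Angptl4 -0.43 and Acta2 0.40. Col1a2 also lost its call with median scaling (-0.49) and without control sample 3 (-0.36) or moR-21 sample 1 (-0.42), Acta2 without moR-21 sample 3 (0.36), Angptl4 without control sample 2 or moR-21 sample 2 (-0.37 in both), and Junb with array B alone (-0.38) and without control sample 2 (-0.33) or moR-21 sample 3 (-0.35).

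**Figure D4:**
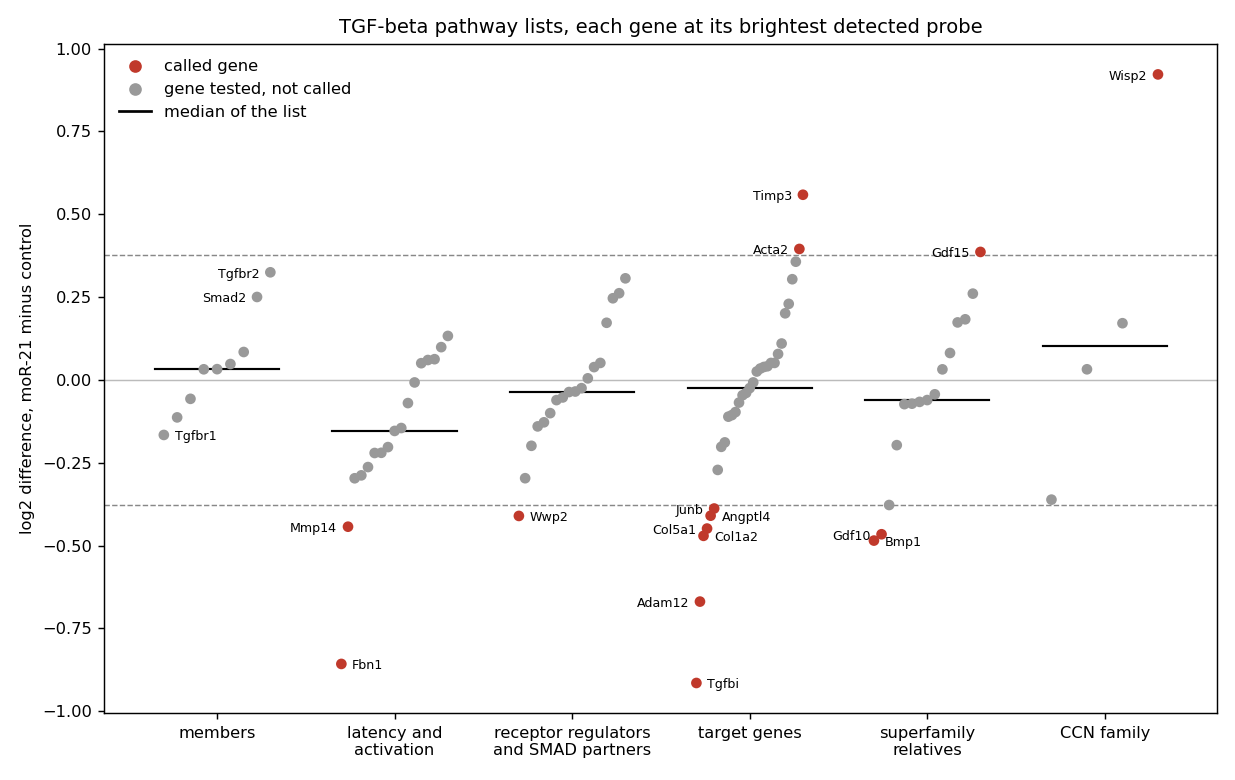
Log2 difference, moR-21 minus control (vertical axis), of each tested gene in the member list and in the 5 pathway lists (horizontal axis), with called genes in red, uncalled genes in grey and list medians as black bars. Dashed lines mark a 1.3-fold change; Tgfbi (-0.91), Fbn1 (-0.86) and Wisp2 (0.92) stand farthest from 0, and all 9 members lie between the dashed lines.

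Ctgf belongs to the CCN family of matricellular proteins, of which 4 of 6 members were tested. Wisp2 rose from between 9.20 and 9.29 in control to between 10.14 and 10.26 in moR-21 samples, a difference of 0.92 (adjusted p = 1.02e-08). Wisp1 differed by -0.36 (adjusted p = 3.52e-05), just short of the fold cutoff, and was called with median scaling and with cyclic loess. Cyr61 differed by 0.17 (adjusted p = 0.0159), beside 0.03 for Ctgf. The dimmer probes of Wisp1 and Cyr61 differed by -0.06 and 0.01 (adjusted p = 0.383 and 0.944), at control means of 6.84 and 6.78. The brighter Cyr61 probe was itself dim, at 6.87 in control.

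Of 27 relatives in the wider superfamily, 24 had a probe and 15 were tested, with 1 called higher and 2 lower. Gdf15, a stress-induced cytokine, rose by 0.39 (adjusted p = 3.98e-04), but this call was absent in 6 of 12 settings, among them those without control sample 1 (0.39), control sample 2 (0.35) or moR-21 sample 2 (0.30). Gdf10 fell by 0.47 (adjusted p = 7.43e-06), and Bmp1, a protease that matures collagen and releases latent complexes, fell by 0.49 (adjusted p = 8.42e-05). With normexp (-0.50, adjusted p = 0.00422) and median scaling (-0.50, adjusted p = 0.00211) Bmp1 missed only the p cutoff. The dimmer Bmp1 probes differed by -0.42, -0.32 and -0.03, at control means of 9.61, 9.22 and 6.97. The uncalled relatives with the smallest p were the activin subunit Inhba (-0.38, adjusted p = 2.54e-05), the type I receptor Acvr1 (0.26, adjusted p = 0.00231) and the BMP antagonist Grem1 (0.17, adjusted p = 0.0135), which was detected on 1 of 8 arrays. Inhba fell just short of the fold cutoff and was called with normexp (-0.52, adjusted p = 9.14e-04). The list median was -0.06.

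The labels name smooth muscle cells as the source, while a description field names AoECs, so markers were checked. Of 9 smooth muscle markers with a probe, 6 were detected, with Acta2 brightest, and Myh11, Cnn1 and Myocd were not detected on any array. Beside Acta2 and Tagln, Des differed by -0.38 (adjusted p = 8.60e-05), and Smtn, Cald1 and Lmod1 by -0.05, -0.0009 and 0.05 (adjusted p = 0.626, 0.994 and 0.449). With normexp Des was called lower, at -0.97 (adjusted p = 3.63e-04), opposite in direction to the normexp call of Tagln. Of 12 endothelial markers only Vwf and Egfl7 were detected, and Pecam1, Cdh5, Kdr and Tek were not. Of 11 macrophage markers 3 were detected, and Ptprc was not. Lyz2 was called at 0.48, Cd14 differed by -0.27 (adjusted p = 3.38e-04) and Csf1r by -0.01 (adjusted p = 0.859). The summed signal of the smooth muscle markers was 10397 to 10758 in control and 13139 to 13972 in moR-21 samples, a sum carried mostly by Acta2. That of the endothelial markers was 1404 to 1449 in control and 1412 to 1437 in moR-21 samples. All marker sums given here include the undetected markers with no background removed, so the endothelial sum is mostly array background. The macrophage sum was 2435 to 2492 in control and 2280 to 2313 in moR-21 samples. Its fall follows Cd14, the brightest of these markers, while Lyz2, the only called one, was higher.

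Some markers of other wall cells were lower. The summed signal of 9 adventitial fibroblast markers, 6 of them detected, was 6955 to 7037 in control and 5136 to 5356 in moR-21 samples, with Ly6a at -1.24 and Lum at -0.56 both called and Dpt, Cd34 and Dpep1 not detected. The others were Pi16 (-0.29, adjusted p = 3.77e-04), Pdgfra (-0.17, adjusted p = 0.0179), Fbln1 (-0.10, adjusted p = 0.116) and Clec3b (0.06, adjusted p = 0.526). The summed signal of 7 mesothelial markers, 2 of them detected, was 1254 to 1272 in control and 882 to 896 in moR-21 samples. It rests on Upk3b, called at -1.24, since Krt19 overlapped between groups (-0.13, adjusted p = 0.116) and Msln and 4 others were not detected. Their part in the differences of Fbn1, Tgfbi, the collagen chains or the members was not tested.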

How the data were processed

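RNA of 3 control and 3 moR-21 samples was hybridized to 8 Illumina mouse arrays, and the paper's methods name both MouseWG-6 v2.0 and MouseRef-8 v2.0. The authors deposited non-normalized probe intensities with no background correction stated, and beside each the deposited detection p-value; the submitters' processing notes name lumi. Without background removal, log2 differences of dim probes are understated. Here all arrays were quantile normalized, log2 transformed and averaged per sample, and limma 3.58.1 (lmFit, eBayes; R 4.3.3) compared the groups with no covariate. Tested were the 11651 probes that 1 or more arrays detected at p under 0.01, with Benjamini-Hochberg adjustment. Calls needed more than 1.3-fold and an adjusted p below 0.002, and the fit was first tested on simulated data. Between 10285 and 10512 probes were detected per array, and the number of samples limits the precision.

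Symbols are those of the table, of which 14307 of 18138 are current in RefSeq (GRCm38.p6), as are 8 of the 9 members. Listed genes absent from the table were sought under an older RefSeq symbol. Named are all members, the called genes of each list with the 3 uncalled ones of smallest p, the 3 nearest profiles, and markers. Some further uncalled matrix targets, and some listed genes without a tested probe, were named outside this rule. The members and lists were chosen with earlier results of these data known. Alternatives were median scaling, cyclic loess, normexp (offset 16), other detection filters, single repeat arrays, duplicateCorrelation, a trended and robust eBayes, blocking on replicate number, leaving out each sample, and other cutoffs. The table names no slides, so none was blocked on. Figures used Python 3.11.15 and matplotlib 3.10.9.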

Additional observations from a re-analysis of the deposited data

How the results depend on the processing

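The count of called member probes was 0 under every alternative that kept the study's cutoffs, and 3 with an adjusted p under 0.05 and no fold cutoff. That cutoff called 3943 probes in all, and 9 latency, 8 regulator, 15 target, 7 relative and 3 CCN genes. A fold over 1.5 left 260 probes in all, 1 latency, 0 regulator, 2 target and 0 relative genes. With normexp, 0 regulator and 5 target genes were called. Median scaling gave 1 relative and 2 CCN genes, cyclic loess 2 CCN genes, and counting any probe of a gene 2 regulators. Leaving out 1 sample in turn gave 0 to 1 regulators, with 0 without moR-21 sample 2. Smad3 then ranged from -0.0343 to 0.133, the brighter Tgfbr3 probe from -0.0189 to 0.143, the dimmer from -0.0383 to 0.0574, and Ctgf from -0.0055 to 0.0809, so their signs turned; the cause was not tested. No scaling moved the median of all probes by more than 0.01. With the replicate number as a block, 815 probes and 0 member probes were called. Once each group's mean was subtracted at each probe, control and moR-21 samples with the same number correlated by 0.04 to 0.19. Those with different numbers correlated by -0.13 to 0.07, and 4 of 6 samples correlated best with their own number. These values do not settle whether the numbers stand for pairs, and the main fit used no pairing. The SE of a member difference was 0.044 to 0.078, which sets what 3 samples per group could detect.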
